A study of Homo sapiens with 6 samples.

Results

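The 10 genes described here belong to AP-1 or to the immediate early response: the AP-1 genes FOS, FOSB, FOSL1, FOSL2, JUN, JUNB, JUND and ATF3, the zinc finger gene EGR1, and IER3. They were chosen by name with earlier results of these data known, and all 10 were found in the deposited table among 18398 genes. RNA sequencing compared SUM159 cells, a human line from a triple-negative breast cancer that has long been in culture, in 2 groups of 3 libraries each. POGK cells were stable lines overexpressing POGK, a KRAB-domain protein derived from a pogo transposable element, and control cells carried the empty pLVX lentiviral vector. The stated question was which genes POGK regulates. Both groups grew in the same medium, with serum, insulin and hydrocortisone, and the labels do not say whether the stable cells were a clone or a pool, when they were harvested after feeding, or whether replicates were separate cultures. The p-values therefore measure the spread between these libraries, which may be technical.

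AP-1 is a family of dimeric transcription factors that bind DNA through a basic region and a leucine zipper. JUN proteins pair with each other or with FOS proteins, FOS proteins need a partner of another kind, and ATF3 pairs with JUN proteins or with itself. EGR1 is a zinc finger factor that binds GC-rich sites and is held back by the corepressors NAB1 and NAB2. Most of these genes are known as immediate early genes: growth factors, serum and stress switch them on through MAP kinases within minutes, without new protein synthesis, and their short-lived mRNAs then fall again. IER3 encodes a small protein tied to survival and stress signalling, and is induced with them although it is not a transcription factor of either family.

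Total counts ran from 27645789 to 33689230 per POGK library and from 28099173 to 32680707 per control library. POGK itself was at 742.5, 781 and 780.3 CPM (read counts scaled for library size, with TMM factors between libraries) in POGK cells, against 62.6, 77.3 and 66.9 CPM in control cells. The mitochondrial genome gave 4.39 to 4.78% of counts in POGK libraries and 2.00 to 3.41% in control libraries. Control libraries differed from each other far more than POGK libraries did, and across all genes tested the median log2 range within a group was 0.121 in POGK cells and 0.365 in control cells. All 9 markers of the mesenchymal SUM159 line that were looked up were detected, summing to 8268 to 8351 CPM in POGK libraries and 11557 to 14382 CPM in control libraries. They went both ways: 5, among them VIM and CD44, were called lower in POGK cells in edgeR, and 4 (AXL, CDH2, MSN and CAV1) higher. VIM and FN1 weigh most in the lower sum, with means of 3344.5 and 962 CPM in POGK cells, against 5960 and 3055 CPM in control cells. Of 21 markers of other cell types, 11 were in the table, summing to 513 to 519.8 CPM in POGK libraries and 502 to 551 CPM in control libraries. Most of it came from the keratin genes KRT8 and KRT18, while EPCAM and ESR1 were at most 0.337 CPM in any library. Others lay between, such as PDGFRB, with means of 14.4 CPM in POGK cells and 35.9 CPM in control cells. ACTA2 had means of 4.98 and 14.7 CPM, and GATA3 of 4.38 and 8.60 CPM. All 9 that were tested passed at an adjusted p below 0.05 in edgeR, 7 as lower and 2, KRT18 and PTPRC, as higher in POGK cells. Of all genes tested, 66.0% passed. The other 10 of the 21 markers were not analysed here.

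Of the 10 members, 7 fell in POGK cells, 1 rose and 2 did not pass at an adjusted p below 0.05 in edgeR's quasi-likelihood test, adjusted over 15889 genes. Of all those genes, 66.0% were called, 33.3% as lower and 32.7% as higher. The libraries of the groups did not overlap for 9 members, 8 with POGK cells lower and 1 with POGK cells higher, beside 73.7% of all genes tested, 36.8% in each direction. The members' median log2 fold change was -0.63, beside 0.0025 for all genes tested. In bulk RNA, fewer cells expressing a gene and less of its RNA per cell cannot be told apart. The falls were largest for ATF3, JUN and JUNB, the only rise was that of FOSL1, and FOS and EGR1 were the members that did not pass.

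**Figure D1:**
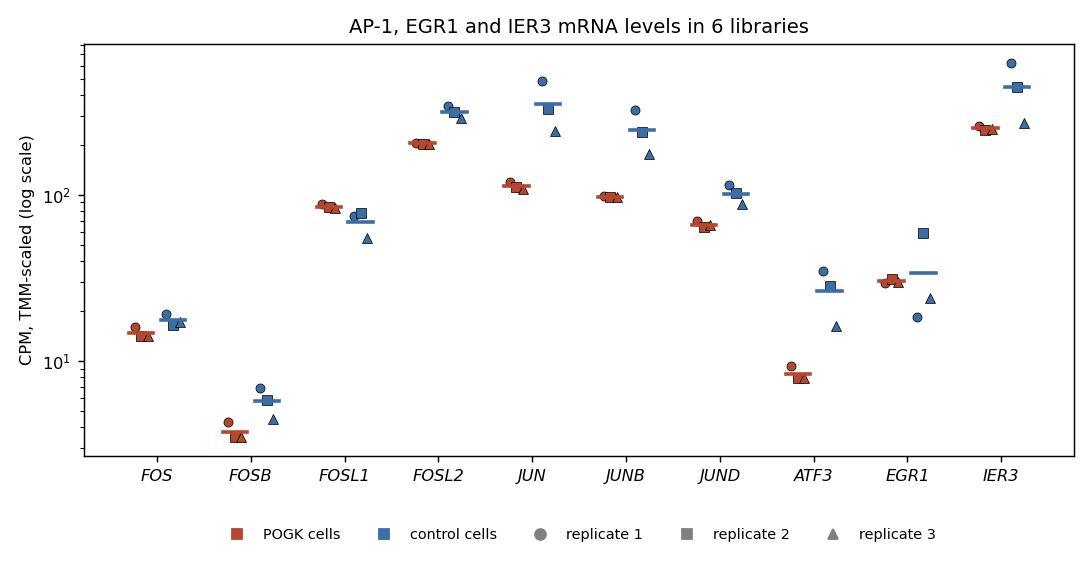
Level of each member in each library, in CPM on a log axis. POGK cells stand left of control cells for each gene, marker shapes give the replicate number, and lines give group means. POGK points lie below all control points for 8 members, above them for FOSL1, and within their range for EGR1.

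The JUN genes encode the AP-1 subunits that every AP-1 dimer of the JUN and FOS kind needs. JUN (ENSG00000177606; hg38 chromosome 1, 58776845 to 58784048, minus strand) had 119, 111 and 109 CPM in POGK cells, against 482, 329 and 244 CPM in control cells. The groups did not overlap, and control replicate 1 was the highest library. JUN was 3.11-fold lower in POGK cells (log2 fold change -1.64, standard error 0.22, edgeR adjusted p 0.000268). JUNB (ENSG00000171223; chromosome 19, 12791486 to 12793315, plus strand), a weaker activator that can compete with JUN, had 98.2, 96.9 and 97.4 CPM in POGK cells, against 325, 237 and 176 CPM in control cells. Again every POGK library lay below every control library. JUNB was 2.52-fold lower (log2 fold change -1.33, standard error 0.19, edgeR adjusted p 0.000353). JUND (ENSG00000130522; chromosome 19, 18279694 to 18281622, minus strand), known as the more steadily expressed JUN gene, had 69.2, 63.7 and 65.7 CPM in POGK cells, against 114, 102 and 88.7 CPM in control cells. The groups did not overlap, and JUND fell 1.54-fold (log2 fold change -0.62, standard error 0.095, edgeR adjusted p 0.000462). JUNB shares 259 exonic bases with HOOK2 on the opposite strand, and because the strand setting of the counting is not given, reads there cannot be assigned. HOOK2 had 397 to 480 counts per POGK library and 410 to 638 per control library. JUNB had 2887 to 3513 and 5211 to 8075.

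JUN, JUNB and JUND are the members whose MANE Select transcript, the reference transcript agreed between annotation groups, has a single exon, and no member has more than 4 exons. Among tested protein-coding genes with a 3′ UTR in that set, 2.0% had a single exon, 19.9% had at most 4, and the median was 9.

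Promoters of JUN, ATF3, JUND and EGR1 are shown as examples of the elements found among the members: JUN and ATF3 hold a motif known to bind JUN and ATF2 dimers at the JUN gene itself, while JUND and EGR1 hold other elements. Whether any element bears on the changes was not tested. RefSeq windows (GRCh38.p14) of 250 bases before the annotated start were found for 8 of the 10 members, and for 2 starts of ATF3. FOSL1 and IER3 are the members named here without a window. Capitals mark matches, on either strand, to the AP-1 motif TGACTCA, the JUN-type motif TGACATCA, the cyclic AMP response element (CRE) TGACGTCA, its shorter part TGACGT, which overlaps the CRE, and the CArG box bound by serum response factor. The windows are JUN at chr1:58784048-58784297 (minus strand), ATF3 at chr1:212565157-212565406 (plus strand, the start farther upstream), JUND at chr19:18281623-18281872 (minus strand) and EGR1 at chr5:138465229-138465478 (plus strand), each written 5′ to 3′.
JUN: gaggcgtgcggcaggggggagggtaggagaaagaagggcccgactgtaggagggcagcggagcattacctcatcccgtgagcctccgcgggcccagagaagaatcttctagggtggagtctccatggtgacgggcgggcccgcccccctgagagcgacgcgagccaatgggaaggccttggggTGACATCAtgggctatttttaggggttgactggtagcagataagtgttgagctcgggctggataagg
ATF3: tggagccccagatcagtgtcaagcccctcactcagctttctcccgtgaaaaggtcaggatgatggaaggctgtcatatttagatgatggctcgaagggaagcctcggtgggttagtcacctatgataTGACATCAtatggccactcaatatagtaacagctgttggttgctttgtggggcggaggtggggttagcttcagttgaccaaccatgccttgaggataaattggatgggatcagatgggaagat
JUND: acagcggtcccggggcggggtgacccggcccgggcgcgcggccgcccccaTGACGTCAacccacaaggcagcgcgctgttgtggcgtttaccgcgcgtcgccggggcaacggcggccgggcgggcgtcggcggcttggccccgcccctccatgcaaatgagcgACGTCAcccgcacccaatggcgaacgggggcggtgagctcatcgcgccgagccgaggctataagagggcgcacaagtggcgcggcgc
EGR1: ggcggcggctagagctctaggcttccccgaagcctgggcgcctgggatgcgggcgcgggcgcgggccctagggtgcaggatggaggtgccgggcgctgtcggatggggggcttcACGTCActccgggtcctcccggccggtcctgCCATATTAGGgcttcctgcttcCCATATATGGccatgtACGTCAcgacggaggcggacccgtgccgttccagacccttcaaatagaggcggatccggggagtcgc

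JUN has TGACATCA at bases -67 to -60 before its start and ATF3 at -123 to -116, and these are the 2 members with this motif, which 2.37% of all 35116 windows hold. JUND has the CRE TGACGTCA, found in 1.65% of all windows, at -200 to -193. The shorter TGACGT is in the windows of 5 members, FOS, FOSB, FOSL2, JUND and EGR1, against 7.10% of all windows. Among the 8 members with a window, EGR1 is the one with CArG boxes in these 250 bases, at -105 to -96 and at -83 to -74, where 1.16% of all windows hold any. JUNB has a match to none of these motifs. No member has TGACTCA in its window, against 4.20% of all windows, and none has the EGR motif GCGGGGGCG, against 4.72%. Bases outside these windows were not searched, so a member without a match here may hold the element elsewhere. A match is a string of letters and does not show binding, and the counts do not say which of the ATF3 starts was used.

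The FOS genes encode the partners of JUN proteins. FOS (ENSG00000170345; chromosome 14, 75278826 to 75282230, plus strand), the founding member, had 16.02, 14.2 and 14.2 CPM in POGK cells, against 19.2, 16.5 and 17.2 CPM in control cells. Every POGK value lay below every control value, but the gap was small, and FOS did not pass (log2 fold change -0.25, standard error 0.10, edgeR adjusted p 0.0563). It passed under 3 of 15 alternatives, among them at 0.0262 without control replicate 2. FOSB (ENSG00000125740; chromosome 19, 45467995 to 45475179, plus strand), also strongly inducible in other settings, had 4.30, 3.48 and 3.51 CPM in POGK cells, against 6.88, 5.87 and 4.48 CPM in control cells. It was 1.52-fold lower (log2 fold change -0.60, standard error 0.18, edgeR adjusted p 0.0163). The FOSB call was lost without POGK replicate 2 (edgeR adjusted p 0.0662), without POGK replicate 3, at 0.0623, and with library size alone as scaling, at 0.0642.

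FOSL1 and FOSL2 encode FRA1 and FRA2, FOS relatives that lack the strong activation domain of FOS, and FRA1 is known for high levels in mesenchymal breast cancer cells. FOSL2 (ENSG00000075426; chromosome 2, 28392448 to 28417317, plus strand) had 207, 203 and 202 CPM in POGK cells, against 344, 314 and 291 CPM in control cells. The groups were well apart, and FOSL2 was 1.55-fold lower (log2 fold change -0.63, standard error 0.078, edgeR adjusted p 0.000138). This adjusted p was the smallest among the members. FOSL1 (ENSG00000175592; chromosome 11, 65892049 to 65900573, minus strand) went the other way, with 87.9, 84.2 and 82.9 CPM in POGK cells, against 74.4, 77.5 and 55.4 CPM in control cells. It was 1.23-fold higher, on a log2 scale 0.30 (standard error 0.12, edgeR adjusted p 0.0481). That call was lost under 8 of 15 alternatives, including DESeq2 at 0.0555, leaving out any POGK replicate at 0.081 to 0.126, and leaving out control replicate 3, its lowest library, where it was 0.16 on the log2 scale (edgeR adjusted p 0.069). For FOSL1 the authors' deposited table gives a log2 fold change of 0.30 and an adjusted p of 0.134, and for FOS and EGR1 it gives adjusted p-values of 0.0959 and 0.777.

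**Figure D2:**
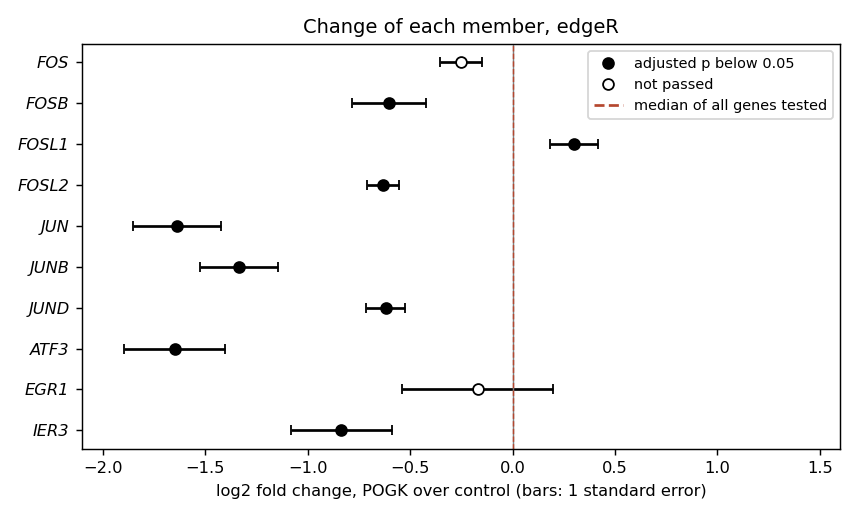
Log2 fold change of each member, POGK over control, with bars of 1 standard error from edgeR. Filled points passed at an adjusted p below 0.05, and the dashed line is the median of all genes tested. ATF3, JUN and JUNB lie between -1.65 and -1.33, and FOSL1 at 0.30 is the filled point above 0.

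ATF3 (ENSG00000162772; chromosome 1, 212565334 to 212620777, plus strand) is a stress-induced member of the ATF and CREB family, often a repressor, that dimerises with JUN proteins. It had 9.36, 7.91 and 7.93 CPM in POGK cells, against 34.7, 28.2 and 16.3 CPM in control cells. The lowest control library was 1.75 times the highest POGK library. ATF3 was 3.14-fold lower, the largest fold among the members (log2 fold change -1.65, standard error 0.24, edgeR adjusted p 0.000419).

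IER3 (ENSG00000137331; chromosome 6, 30743199 to 30744548, minus strand) had 260.3, 244 and 249 CPM in POGK cells, against 624, 448 and 272 CPM in control cells. Control replicate 3 lay just above the POGK libraries, at 1.05 times the highest of them, so the size of the fall rests on which control library is read. IER3 was 1.78-fold lower (log2 fold change -0.83, standard error 0.25, edgeR adjusted p 0.0168). Without control replicate 3 the log2 fold change was -1.10 and without control replicate 1 it was -0.52, and the call was lost without POGK replicate 2 (edgeR adjusted p 0.0575), or POGK replicate 3, at 0.0597. IER3 shares 440 exonic bases with IER3-AS1 on the opposite strand, which had 8 to 11 counts per POGK library and 8 to 18 per control library, against 7379 to 9312 and 8086 to 15500 for IER3.

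EGR1 (ENSG00000120738; chromosome 5, 138465479 to 138469303, plus strand) had 29.4, 31.0 and 30.1 CPM in POGK cells, against 18.5, 59.0 and 24.0 CPM in control cells. POGK libraries were nearly alike and fell inside the control range, where control replicate 2 was 3.19 times control replicate 1. EGR1 did not pass (log2 fold change -0.17, standard error 0.37, edgeR adjusted p 0.704). Without control replicate 2 the sign turned and EGR1 was called higher, at 0.51 on the log2 scale (edgeR adjusted p 0.00305). With library size alone it was 0.01. The direction of EGR1 between the groups depends on this 1 control library.

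Levels of different genes are compared per kilobase of annotated exon. In POGK cells IER3 was highest, at 186 ± 6.08 CPM per kilobase, followed by JUNB at 53.3 ± 0.35, FOSL1 at 45.03 ± 1.37, JUND at 34.3 ± 1.45, JUN at 31.2 ± 1.5 and FOSL2 at 28.5 ± 0.32 CPM per kilobase (SD, n = 3 each). JUND lay somewhat above JUN in each POGK library, at 35.9, 33.0 and 34.1 against 32.8, 30.7 and 30.0 CPM per kilobase. In control cells IER3 stood at 332 ± 130.2 CPM per kilobase, JUNB at 134 ± 41.05, JUN at 97.0 ± 33.4, JUND at 52.8 ± 6.63, FOSL2 at 44.1 ± 3.69 and FOSL1 at 36.6 ± 6.35 CPM per kilobase (SD, n = 3 each). In control cells the spreads between libraries overlapped for JUNB and JUN and for FOSL2 and FOSL1, but within each library the order held. JUNB had 178, 130 and 95.9 CPM per kilobase, against 133, 90.7 and 67.2 for JUN. FOSL2 had 48.0, 43.8 and 40.6 CPM per kilobase, against 39.4, 41.1 and 29.3 for FOSL1. EGR1, ATF3, FOS and FOSB were the lowest 4 in both groups, FOSB at 0.68 ± 0.084 CPM per kilobase in POGK cells and 1.03 ± 0.22 in control cells.

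The makeup of both families differed between the groups. FOSL1 made up 57.3, 57.1 and 56.9% of the FOS family's reads per kilobase in POGK cells, against 41.6, 45.1 and 38.5% in control cells. FOSL2 made up 35.5, 36.4 and 36.5% in POGK cells, against 50.7, 48.1 and 53.3% in control cells. FOSL1 was thus the largest share in all POGK libraries and FOSL2 in all control libraries, while FOS held 5.68 to 7.09% and FOSB at most 1.31% in any library. In the JUN family, JUND made up 29.3, 28.3 and 29.1% in POGK cells, against 16.02, 19.4 and 22.0% in control cells. JUN made up 26.8, 26.3 and 25.6% in POGK cells, against 36.0, 33.2 and 32.1% in control cells. JUNB was the largest share, at 43.8 to 45.4% in POGK cells and 45.9 to 48.0% in control cells. Shares within a family depend on each other, and no test was run on them. Without length scaling FOSL2 was the largest share of the FOS family in all 6 libraries, at 65.6 to 66.8% in POGK cells and 75.9 to 79.1% in control cells.

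**Figure D3:**
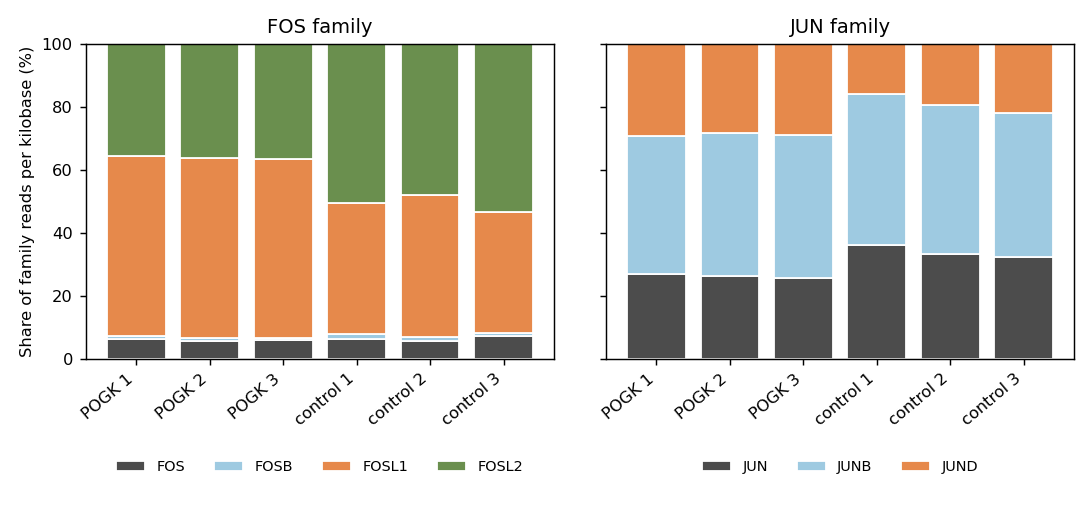
Share of each gene in the reads per kilobase of its family, in percent, for each library, with POGK libraries left of control libraries. FOSL1 takes 56.9 to 57.3% of the FOS family in POGK cells and 38.5 to 45.1% in control cells, and JUND takes 28.3 to 29.3% of the JUN family in POGK cells and 16.02 to 22.0% in control cells.

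All 10 members spread more among control libraries than among POGK libraries. The coefficient of variation of JUN was 4.804% in POGK cells and 34.4% in control cells, and that of EGR1 was 2.68% in POGK cells and 65.0% in control cells. For FOS the values were close, at 7.13% in POGK cells and 7.92% in control cells. Control replicate 1 was the highest control library for 8 members and control replicate 3 the lowest for 8, without a count over all genes tested to set beside them. FOSL1 and EGR1 were highest in control replicate 2, and EGR1 was lowest in control replicate 1. The members' median log2 range within a group was 0.106 in POGK cells and 0.750 in control cells, beside 0.121 and 0.365 for all genes. Control replicate 1 was also the library with the lowest mitochondrial share, 2.00%, and the lowest TMM factor, 0.885, and their part in the members' spread was not tested. For JUN, the lowest control library was 2.05 times the highest POGK library, so that its fall is present against each control library.

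**Figure D4:**
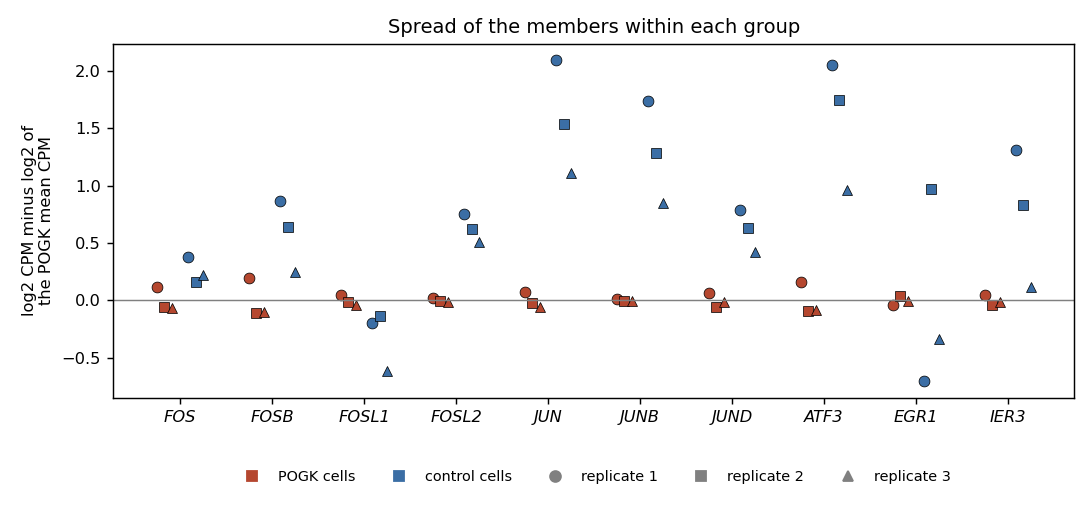
Log2 CPM of each library minus the log2 of the POGK mean CPM, per member. POGK libraries stand left of control libraries, and shapes give the replicate number. POGK points cluster near 0, while control points span a log2 range of 1.67 for EGR1, 1.20 for IER3 and 1.09 for ATF3.

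A description of likeness gave different companions to different members. Over the 6 libraries, the protein-coding genes with the log2 CPM most like that of JUN were EEF1B2, a translation elongation factor gene, with a Pearson r of 0.9999, TNFAIP3, an inhibitor of NF-kB signalling, with 0.9998, and RPL27, a ribosomal protein gene, with 0.9995. The likeness is in shape and not in size: EEF1B2 had a log2 fold change of -0.61. TNFAIP3 had 168, 156 and 157 CPM in POGK cells, against 804, 529 and 375 CPM in control cells. A total of 3004 of 11934 genes had an r of at least 0.9 with JUN, so such a value is common. For FOS the genes were MSRB2, IFI27L1 and LRRC37A3, with r from 0.988 to 0.996. For EGR1, only 71 genes reached 0.9, and the closest were KCNG1 with 0.994, KIF21B with 0.991 and TMEM204 with 0.987. KCNG1 had 21.5, 20.6 and 20.6 CPM in POGK cells, against 14.7, 32.5 and 17.2 CPM in control cells, and like EGR1 it was highest in control replicate 2. All these points share libraries and the group difference, and no test applies.

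The other EGR genes and the NAB corepressors were lower or did not pass. Of 4 tested genes, 3 fell and 1 did not pass, and the median log2 fold change was -0.66. That is 75% called, all as lower, beside 66.0% of all genes tested, 33.3% as lower. NAB2, an EGR1 target that in turn restrains EGR1, had 15.2, 15.1 and 15.9 CPM in POGK cells, against 41.9, 32.7 and 34.9 CPM in control cells. It fell 2.36-fold (edgeR adjusted p 2.32e-05). NAB1 fell 1.25-fold (edgeR adjusted p 0.00264), and this call was lost with library size alone, at 0.0992. EGR2 was scarce, at 0.72 ± 0.070 CPM in POGK cells and 1.19 ± 0.38 CPM in control cells (SD, n = 3 each), and its call (edgeR adjusted p 0.0393) was lost under 8 of 14 alternatives. EGR3, at 0.25 ± 0.10 CPM in POGK cells and 0.37 ± 0.079 CPM in control cells, did not pass, and EGR4 was not analysed here.

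Of 6 genes for SRF, its ternary complex partners and its coactivators, 2 rose, 1 fell and 3 did not pass. Their median log2 fold change was 0.14, and 50% were called, beside 66.0% of all genes tested. SRF, the serum response factor, averaged 55.9 ± 2.18 CPM in POGK cells and 55.4 ± 7.05 CPM in control cells (SD, n = 3 each) (log2 fold change 0.01, standard error 0.096, edgeR adjusted p 0.917). Its ternary complex partners, which MAP kinases phosphorylate, gave log2 fold changes of 0.03 for ELK1 and 0.25 for ELK4, which did not pass, and -0.30 for ELK3, which fell (edgeR adjusted p 0.00291). With library size alone ELK1 and ELK4 passed as higher and ELK3 did not pass, at 0.115. The actin-regulated SRF coactivators rose: MRTFA had 18.1, 17.1 and 17.5 CPM in POGK cells, against 8.05, 12.2 and 12.1 CPM in control cells, an increase of 1.62-fold, and MRTFB rose 1.54-fold, at edgeR adjusted p-values of 0.00332 and 0.00204.

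MAP kinase cascade genes went both ways, with 13 of 31 higher, 11 lower and 7 that did not pass, and a median log2 fold change of 0.16. That is 77.4% called, beside 66.0% of all genes. MAPK3, the gene of ERK1, averaged 24.0 ± 1.5 CPM in POGK cells and 56.6 ± 8.78 CPM in control cells (SD, n = 3 each) and fell 2.36-fold. MAP2K4, a kinase that activates JNK, rose 2.25-fold, with 55.2 ± 1.55 CPM in POGK cells and 24.5 ± 3.88 CPM in control cells. RPS6KA2, a ribosomal S6 kinase downstream of ERK, fell 2.88-fold and MKNK2, a kinase of the translation factor eIF4E, fell 1.74-fold. These 4 had edgeR adjusted p-values of 4.58e-05 or below. The counts measure mRNA and say nothing of kinase activity.

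Partners and competitors of AP-1 with a leucine zipper were mostly lower: 18 of 24 fell, 3 rose and 3 did not pass. Their median log2 fold change was -0.62. Of these genes, 87.5% were called and 75% were called lower, beside 66.0% and 33.3% of all genes tested. MAF had 0.17, 0.22 and 0.10 CPM in POGK cells, against 6.48, 3.51 and 4.01 CPM in control cells. Its protein forms dimers with FOS and JUN, and its fall, a log2 fold change of -4.76, was larger than that of any member. CEBPB, an inflammatory response factor, fell 3.50-fold and ATF7, a relative of ATF2 that pairs with JUN, fell 2.81-fold. The edgeR adjusted p-values of these 3 were 2.51e-05 or below. Picked out once their values were known, ATF5, BATF3 and CREM were the 3 that rose, with log2 fold changes of 0.83, 0.96 and 0.86.

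Among 39 other immediate early genes, 34 fell and 3 rose, and their median log2 fold change was -1.01. In this list 94.9% were called and 87.2% were called lower, beside 66.0% and 33.3% of all genes tested. BTG1, an antiproliferative gene, had 96.1, 89.0 and 86.5 CPM in POGK cells, against 477, 330.5 and 318 CPM in control cells, and fell 4.14-fold. DUSP4, a phosphatase of MAP kinases, had 17.7, 16.5 and 17.5 CPM in POGK cells, against 41.9, 38.2 and 41.1 CPM in control cells, and fell 2.35-fold. CCN2, a matricellular gene regulated by YAP and TGF-beta, rose, with 104, 106 and 109 CPM in POGK cells, against 59.9, 60.1 and 59.5 CPM in control cells. Chosen after their values were seen, DUSP2 and SGK1 were the other two that rose, with log2 fold changes of 1.36 and 1.28, and PPP1R15A, a stress gene, had the lowest value of the list, -3.03. Control replicate 1 was the highest control library for 29 of the 39. No such count over all genes tested is given here, so this is not set apart from the library as a whole. The list was drawn up with earlier results of these data known, so its direction is a description.

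**Figure D5:**
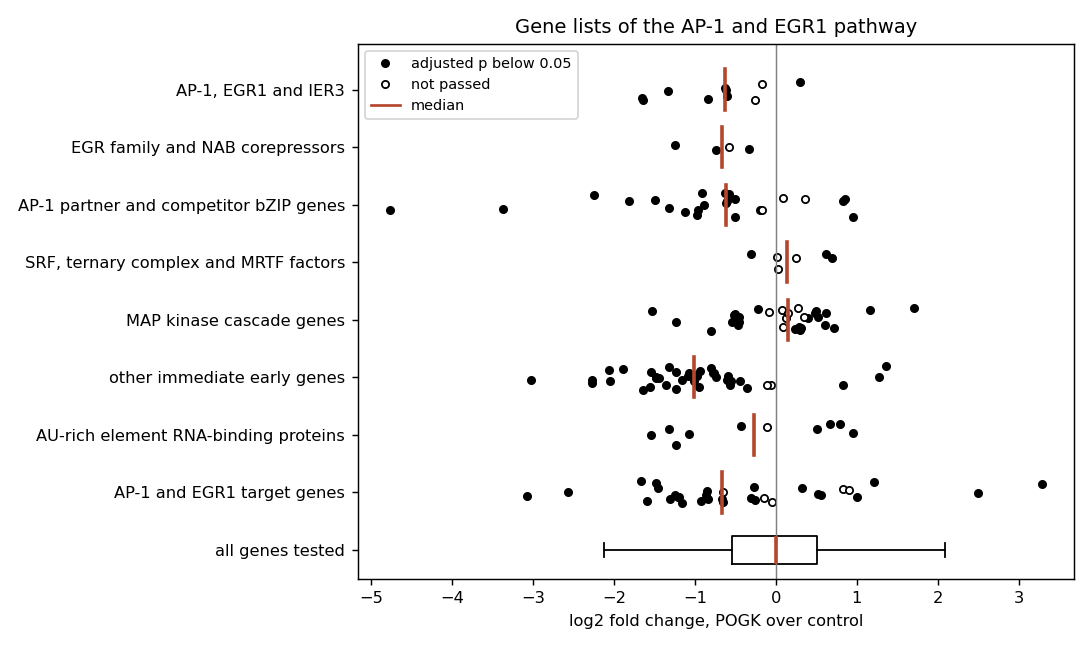
Log2 fold change, POGK over control, of each tested gene of the lists, 1 point per gene, with the median of each list as a bar and all genes tested as a box (quartiles, whiskers to 1.5 times their range). Immediate early genes centre at -1.01, AP-1 partners at -0.62 and the 10 members at -0.63, while MAP kinase genes and SRF-type factors centre at 0.16 and 0.14.

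The mRNAs of immediate early genes often carry AU-rich elements, which destabilise them. The 3′ UTR of the MANE Select transcript held the letters TATTTAT, a core of such elements written as DNA, in 8 of the 10 members, against 36.4% of 12849 tested protein-coding genes. At least 3 such sites were held by 1 of the 10 members, against 7.33% of those genes. IER3 had 4 such sites in 737 bases, FOS 2 in 806 and FOSL2 2 in 4869, while FOSB, FOSL1, JUN, JUND and ATF3 had 1 each. EGR1 and JUNB had none. The shorter letters ATTTA ran from 0.818 per kilobase in EGR1 to 8.141 in IER3, beside a median of 1.76 over those genes. FOSB, FOSL1, JUND and EGR1 lay below that median and the other members above it. Whether these elements bear on the changes was not tested. Genes of proteins that bind AU-rich elements went both ways: 5 of 10 fell, 4 rose, 1 did not pass, and the median log2 fold change was -0.27. Here 90% were called and 50% were called lower, beside 66.0% and 33.3% of all genes tested. ZFP36, ZFP36L1 and ZFP36L2 are also counted among the other immediate early genes. The decay-promoting ZFP36 and ZFP36L2 fell 2.90-fold and 2.11-fold, ELAVL1, the gene of the stabilising protein HuR, rose 1.73-fold, and AUH fell 2.49-fold, at edgeR adjusted p-values of 7.62e-05 or below.

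Genes known as targets of AP-1 or EGR1 went both ways. Of 32 tested, 20 fell, 7 rose and 5 did not pass, and their median log2 fold change was -0.66. The shares called and called lower were 84.4% and 62.5%, beside 66.0% and 33.3% of all genes tested. The 4 with the smallest adjusted p fell: MMP14, a membrane protease, 8.39-fold, FN1, the gene of fibronectin, 3.17-fold, ICAM1, an adhesion molecule, 2.80-fold, and VEGFA 2.74-fold, at edgeR adjusted p-values of 2.07e-05 or below. Picked out once its values were known, the collagenase gene MMP1, a classical AP-1 target, had 9.98, 10.9 and 12.3 CPM in POGK cells, against 0.64, 1.85 and 0.81 CPM in control cells. MMP3, the gene of stromelysin, picked out in the same way, had 3.38, 2.85 and 3.07 CPM in POGK cells, against 0.56, 0.67 and 0.40 CPM in control cells. Both rose, with log2 fold changes of 3.29 and 2.49, at edgeR adjusted p-values of 2.8e-05 and 2.5e-05. CXCL8, likewise chosen after its values were seen, did not pass (edgeR adjusted p 0.0595), with 484, 466 and 467 CPM in POGK cells, against 264, 386 and 105 CPM in control cells.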

How the data were processed

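Raw read counts of 6 libraries, 1 value per Ensembl gene, were taken as deposited. Per the labels' protocols, rRNA-depleted total RNA was sequenced and aligned to hg38. Per the submitters' processing notes, Trimmomatic, STAR, SAMtools, deepTools and featureCounts were used. Neither the annotation nor the strand setting of the counting is stated in the sources used here. The authors also supplied size-factor scaled signal values for every library (the count divided by 1 factor) and, from their own comparison, the log2 fold change, standard error, test score, p-value and adjusted p-value. These enter the text only as values of the authors' deposited table.

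Counts were tested as deposited with edgeR 4.0.16 (R 4.3.3) by the quasi-likelihood test with robust estimation, TMM scaling, the default filter on low counts (15889 genes, all 10 members among them) and Benjamini-Hochberg adjustment over all genes tested. Standard errors come from the F statistic. Alternatives used DESeq2 1.42.0, limma-voom 3.58.1 with and without quality weights per group, other scalings, filters and libraries. Exon lengths came from GENCODE release 44, which matched 18264 of 18398 identifiers. The members and the gene lists were chosen with earlier results of these data known. Some lists share genes, among them ZFP36, ZFP36L1, ZFP36L2, NAB2 and HBEGF, so their counts are not separate. The rule for named genes took the members, POGK, the EGR, NAB and SRF-type genes, the 4 genes with the smallest adjusted p of each other list, and the 3 genes most like FOS, JUN and EGR1. A gene that the rule takes is not reported here.

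Pairs of libraries were compared by chi-square per gene, over genes with at least 20 counts. Pairs of POGK libraries gave 1.36 to 2.62 and pairs of control libraries 22.5 to 49.7, so no pair differed by less than sampling noise and all 6 were kept. The edgeR test pools these unequal spreads. On simulated counts for this comparison with 200 genes changed 2-fold, edgeR recovered 78.5% of the 195 changed genes among the 15559 tested. None was in the wrong direction, and 11 false calls were made among the unchanged genes. The simulation gave both groups the same spread for each gene and changed far fewer genes than were called here. It therefore does not measure error rates under the unequal spreads of these libraries.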

Additional observations from a re-analysis of the deposited data

How the results depend on the processing

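The 10 members were refitted under 15 alternatives each, giving 150 values, of which 133 kept their direction and side of the threshold. JUN, JUNB, JUND, FOSL2 and ATF3 passed as lower in all 15. The number of members called lower ranged from 5 to 8. The number called higher was 0 with DESeq2-style size factors, DESeq2, a filter of 1 CPM in 3 libraries or protein-coding genes only, and from 0 to 2 with 1 library left out. Without control replicate 2, EGR1 reversed to 0.51, KCNG1 to 0.39 and KIF21B to 0.46, each then called higher. Without control replicate 1 these 3 were at -0.46, -0.25 and -0.64. Of 583 values of the other named genes, 555 kept direction and side, 18 lost the call, 8 gained one and 2 reversed. With library size alone, which moved the median of all genes to 0.19, 1 EGR or NAB gene was called lower, and 4 SRF-type genes were called higher and 0 lower. Counts over all genes ranged from 4400 to 6575 higher and from 3925 to 5587 lower, with the highest number higher and the lowest number lower under library size alone. On raw counts the JUNB share of its family differed by 0.14 points, POGK minus control, in place of -2.23, because length scaling is left out, and on the same scale the FOSL1 share differed by 10.8 in place of 15.4. MANE transcript lengths, an alternative chosen after seeing the data, moved all 7 share differences by less than their spread.

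Same-numbered libraries deviated together with correlations of 0.0867, 0.041 and 0.00275, and POGK replicate 3 correlated more with control replicate 2, at 0.0458, so the numbers were not treated as pairs. With the replicate block, 0.31 was the log2 fold change of FOSL1 at an edgeR adjusted p of 0.0141, the members' calls were as in the fit without it, and ELK4 passed at 0.035. FOS, FOSB, FOSL1 and IER3 changed sides of the threshold under some alternatives, and the cause was not tested. FOSB had 104 to 184 counts per library, the lowest counts among the members.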
